A study of Mus musculus with 10 samples.

Results

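The genes described here mark beta cells that lose their mature state, or belong to the disallowed genes that mature beta cells keep low. They are Aldh1a3, Neurog3, Gast, Cck, Sox9, Myc, Oat, Cat, Rest and Pdgfra, taken by symbol from the gene table and from the splicing table. All 10 were found among 35214 genes. For 8 of them the splicing table held 51 of its 167895 events, while Sox9 and Rest had no event there.

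RNA-seq was done on islets of 10 male mice on a high-fat diet free of carbohydrate, which were switched at 18 weeks of age to a diet with carbohydrate for a short time. The 5 NZO mice (strain NZO/HiBomDife) are obese and prone to diabetes. The 5 B6-ob/ob mice (C57BL/6J.V-Lepob/ob) are obese because they lack functional leptin, and they resist diabetes. The strains differ in their whole genetic background and in the leptin mutation at once, and both groups received the diet switch, so these cannot be told apart and no mice without the switch enter any comparison. The labels name the tissue as pancreas, and the methods describe isolated islets. Mean normalized counts of the 6 beta cell markers ran from 6879 (Ucn3) to 6676910 (Ins2), those of the other islet hormones were 240204 for Gcg, 68470 for Ppy and 24410 for Sst, and the ductal markers Spp1 and Krt7 had 17721 and 12714, while 10 acinar markers lay between 82.1 and 402.

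A mature beta cell makes insulin and silences genes that would disturb its response to glucose, such as enzymes and signalling proteins common elsewhere. Under lasting metabolic stress beta cells can lose this state, and they then turn on genes of endocrine progenitors or of other hormone cells. The transcription factors Sox9 and Neurog3 act in pancreatic progenitors in turn. The retinaldehyde dehydrogenase Aldh1a3 is known as a marker of failing beta cells in mice.

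The members' levels were read as the authors' mean normalized count over all 10 libraries, divided here by the length of the longest annotated transcript so that genes can be compared. These values hold both strains together, and without a value per library no spread and no order beyond error can be given. Fewer cells of a type and less RNA per cell cannot be told apart in such bulk samples. Aldh1a3 stood highest by far, at 1019 mean normalized counts per kb, above 92.6% of the genes with any count. It was 3.59 times the next member. Oat, the mitochondrial ornithine aminotransferase and a disallowed gene, followed at 284 per kb and the 75.0 percentile. Cck, which encodes the peptide hormone cholecystokinin, came next at 217 per kb and the 70.2 percentile.

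Myc, Cat, Gast and Neurog3 lay close together just above the median of the genes with any count, which was 45.3 per kb. Myc, a transcription factor of growth and proliferation, had 87.1 per kb. Cat, the catalase that breaks down hydrogen peroxide, also had 87.1 per kb. Gast, which encodes gastrin, a hormone of the fetal pancreas and the adult stomach, had 79.5 per kb. Neurog3, which starts the endocrine programme, had 66.0 per kb. Order among these is not resolved, since without a spread the gaps cannot be set against error.

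The last 3 members lay below that median of the genes with any count. Rest, the repressor of neuronal genes that endocrine cells keep low, had 9.61 per kb. Sox9, which is kept in adult duct cells, had 7.28 per kb. Pdgfra, a growth factor receptor of mesenchymal cells, had 1.58 per kb, at the 23.2 percentile. As mean normalized counts, not divided by length, these were 67.3 for Rest, 30.1 for Sox9 and 10.8 for Pdgfra, against 3509 for Aldh1a3.

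**Figure D1:**
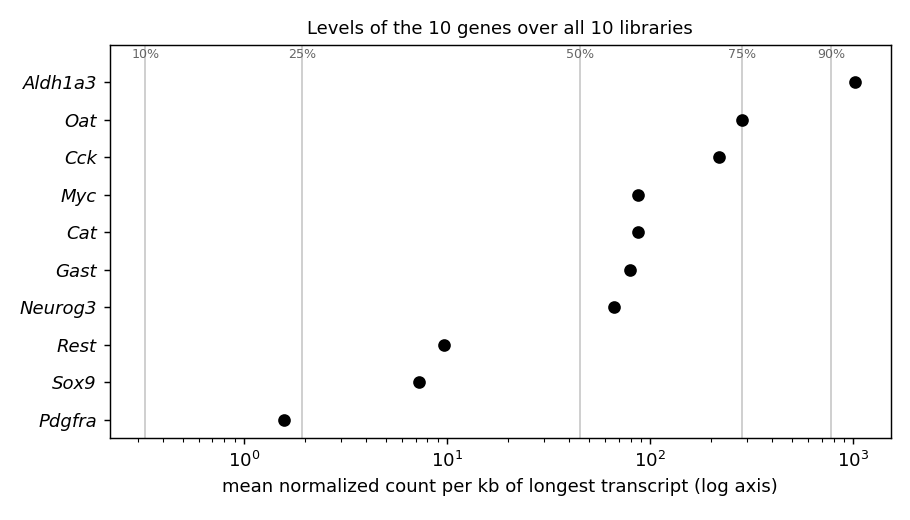
Mean normalized count per kb of the longest transcript over all 10 libraries (log axis) for the 10 genes, 1 point a gene. Grey lines mark percentiles of all genes with a count above 0; Aldh1a3, at 1019, lies above the 90% line, and Pdgfra, at 1.58, below the 25% line.

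Splicing was read as the percent spliced in (PSI), written here from 0 to 1. For an exon, a splice site or an intron it is the share of transcripts that hold the stretch. For tandem starts and tandem ends it is the share, within 1 set of tandem sites, that start or end at each site. The PSI values of 1 set thus sum to about 1 (0.999 for the ends of Neurog3 in NZO). A gene can hold more than 1 set, and the PSI is then not a share of all its transcripts. The table gave 1 value per strain with the libraries of its 5 mice pooled. A difference is NZO minus B6-ob/ob, and it has no error and no test. An event counts as past the limit at an absolute difference over 0.1. Of the 51 events of the members 2 passed it, where 8.73% of all events did. Both lie in Neurog3 and are the counterparts of a single choice between 3′ ends, so they are not independent. By type, 0 of the members' 32 cassette exons passed, against 1.48% of all cassette exons. Of their 11 tandem polyadenylation sites 2 passed, against 29.4% of all such sites, and so the share does not stand apart. The median absolute difference of the members' events was 0.00855, and that of all events was 0.00911.

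**Figure D2:**
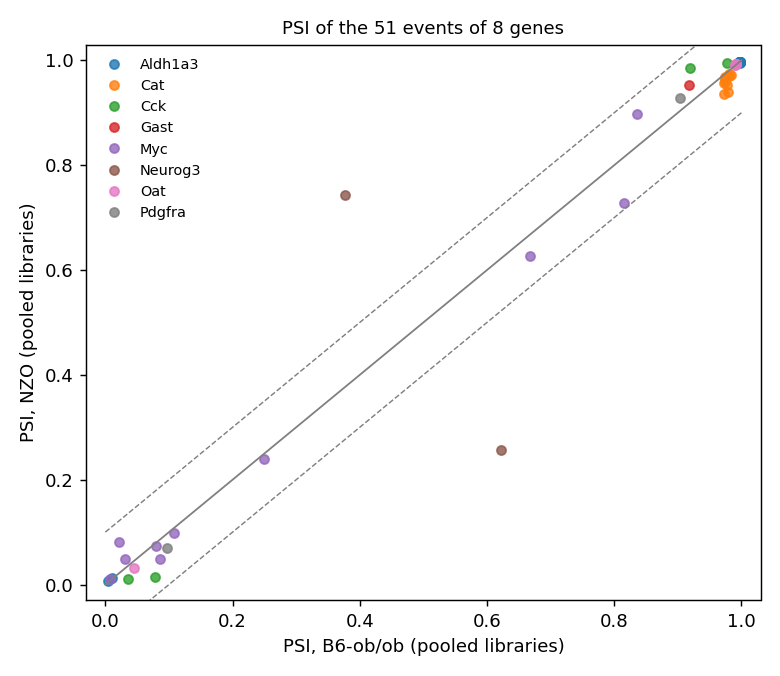
PSI in B6-ob/ob (x axis) against NZO (y axis), both from pooled libraries, for the 51 events of 8 genes; 1 point is 1 event. The solid line marks equal PSI and the dashed lines a difference of 0.1; the points beyond them are both of Neurog3, at PSI differences of -0.37 and 0.37.

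The Neurog3 gene lies at chr10:62133090-62134763 of mm10 on the plus strand. Its last exon was divided into 2 stretches. The upstream stretch, chr10:62133462-62134433, spans 972 nt and holds all 645 coding nt, stop codon included. The PSI of the end after it was 0.256 in NZO and 0.623 in B6-ob/ob, a difference of -0.37. The downstream stretch, chr10:62134434-62134763, is 330 nt of 3′ UTR. The end after it had 0.742 in NZO and 0.377 in B6-ob/ob, a difference of 0.37. NZO islets thus mostly held the longer end and B6-ob/ob islets the shorter one. The coding sequence is the same with either end. In annotation the shorter end is the end of a transcript classed as retained intron, 326 nt after the stop codon. The longer end is that of the protein-coding transcript, 656 nt after it. Because the change is at 3′ ends, the final 30 nt before each end are shown.

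Neurog3 upstream end: ggtgagtctgccctcattcaaatctgccgg
Neurog3 downstream end: gacggttcctgaagcactgtttgtctccct

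These are chr10:62134404-62134433 and chr10:62134734-62134763. Neither window, nor the 40 nt before each end, held the polyadenylation signal letters AATAAA or ATTAAA, searched on the transcript's strand alone. Of 22237 tandem sites that end at an annotated transcript end, 55.2% held one of them in that window. Neurog3 had a mean normalized count of 102. Among tandem sites of genes with mean counts from 50 to 200, a range chosen after these values were seen, 38.5% passed the limit. The absolute differences of the Neurog3 ends exceeded those of 95.8% of all tandem sites.

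**Figure D3:**
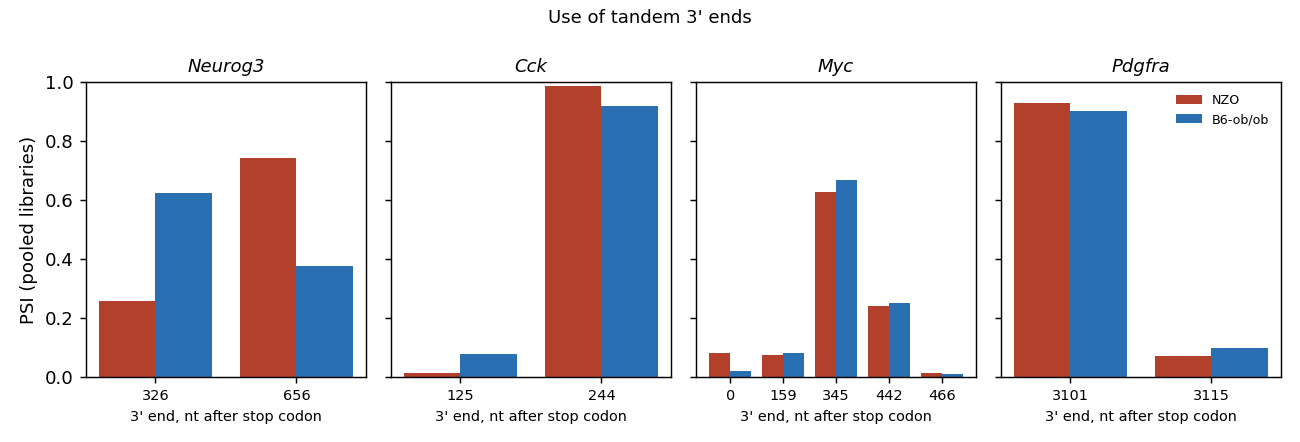
PSI of each tandem 3′ end of Neurog3, Cck, Myc and Pdgfra, placed by its distance in nt after the stop codon, as bars for NZO and B6-ob/ob (libraries pooled, no error available). In Neurog3 the end at 656 nt had a PSI of 0.742 in NZO islets, compared with 0.377 in B6-ob/ob, and in the other genes the same end led in both strains.

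Myc had 10 events, the most varied set of the members, and none passed the limit. Its largest difference was at an alternative acceptor of exon 2, chr15:61987507-61987509, which adds or leaves out 3 nt. The PSI of these 3 nt was 0.728 in NZO and 0.816 in B6-ob/ob, a difference of -0.09. This exceeded the absolute difference at 82.9% of all alternative acceptors. The 3 nt lie before the usual start codon of Myc and inside the reading frame of the longer Myc form, which starts at a non-AUG codon at the end of exon 1, so their loss keeps that frame. Shown are the last 9 nt of exon 1 joined to exon 2 up to the usual ATG, with the 3 nt in capitals.

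Myc upstream acceptor: gaaaccccgCAGacagccacgacgatg
Myc downstream acceptor: gaaaccccgacagccacgacgatg

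The exon 2 parts are chr15:61987507-61987524 and chr15:61987510-61987524. Myc also used 4 tandem start stretches. The main one, chr15:61985622-61985921, had a PSI of 0.898 in NZO islets, compared with 0.836 in B6-ob/ob. The stretch upstream of it, 58 nt long, had 0.0484 and 0.0858. At the 3′ side the end 345 nt after the stop codon led in both strains, with a PSI of 0.626 in NZO islets, compared with 0.668 in B6-ob/ob. It held AATAAA in its last 40 nt. So did the ends at 442 and 466 nt, which share the same AATAAA, with 12 and 36 nt from its start to each end. The shortest end stops at the last base of the stop codon, and its PSI was 0.0813 in NZO and 0.0209 in B6-ob/ob.

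Gast and Cck encode hormones of 1 family, whose active peptides end in the same 5 amino acids. The coding stretches around these residues are shown because the alternative exons of both genes carry the start codon or shift the reading frame before them. Capitals mark the codons of the shared pentapeptide.

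Gast coding stretch: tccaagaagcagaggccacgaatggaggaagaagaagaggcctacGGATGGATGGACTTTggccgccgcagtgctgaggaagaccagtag
Cck coding stretch: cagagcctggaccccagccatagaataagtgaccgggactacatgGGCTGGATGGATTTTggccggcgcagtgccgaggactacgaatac

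They lie at chr11:100336810-100336899 on the plus strand and chr9:121490077-121490166 on the minus strand, both in the last exon. Gast had 1 event, the cassette exon 2 at chr11:100336478-100336693. It is 216 nt long, 211 of them coding, and it carries the start codon (capitals). Its coding part, chr11:100336483-100336693, is shown, as transcripts without it lack the annotated start.

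Gast exon 2, coding part: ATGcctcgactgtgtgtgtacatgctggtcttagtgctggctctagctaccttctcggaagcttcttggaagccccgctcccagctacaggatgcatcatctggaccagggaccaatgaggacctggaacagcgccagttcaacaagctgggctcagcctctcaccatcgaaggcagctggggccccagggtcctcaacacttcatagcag

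Inclusion was 0.952 in NZO and 0.917 in B6-ob/ob, a difference of 0.04. This exceeded 88.3% of the absolute differences at cassette exons of all genes but lay within the limit. Gast had a mean normalized count of only 36.6, and cassette exons of genes with similar counts were not set beside it.

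Cck had 4 events. The exon with its start codon, chr9:121494317-121494532, was included at 0.994 in NZO and 0.978 in B6-ob/ob. A further exon of 163 nt, chr9:121493369-121493531, was rare, with a PSI of 0.00985 in NZO islets, compared with 0.0355 in B6-ob/ob. Its length is not a multiple of 3. In the annotated transcript that holds it the coding part of the last exon is 25 nt instead of 131 nt, and the stop codon comes 52 nt before the pentapeptide codons. The exon, in the sense direction, reads as follows.

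Cck rare exon: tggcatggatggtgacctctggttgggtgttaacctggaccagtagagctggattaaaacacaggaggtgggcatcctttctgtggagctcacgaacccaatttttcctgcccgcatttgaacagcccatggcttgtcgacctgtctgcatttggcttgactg

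The largest differences of Cck were at its 3′ ends. The end 125 nt after the stop codon had a PSI of 0.0135 in NZO islets, compared with 0.0777 in B6-ob/ob. The end at 244 nt had 0.986 and 0.920, a difference of 0.07, and held ATTAAA in its last 40 nt. Each Cck event thus favoured the usual form slightly more in NZO, though all 4 differences were within the limit. The events at its 3′ ends are counterparts of a single choice, so the 4 are not independent. The receptors of these peptides, Cckar and Cckbr, had mean normalized counts of 4.38 and 0.575 and no splicing event.

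Cat had 11 cassette exons, all coding, and all 11 had a lower PSI in NZO. Over all genes 72.0% of cassette exons were lower in NZO, and exons of 1 gene are not independent. In NZO the PSI ranged from 0.936 to 0.973, and in B6-ob/ob from 0.973 to 0.983. The largest difference was at exon 3, chr2:103474330-103474440, with 0.939 in NZO and 0.979 in B6-ob/ob. The difference of -0.04 exceeded in size 90.1% of those at cassette exons. The exon is shown for this; its 111 nt are a multiple of 3, so its loss keeps the reading frame.

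Cat exon 3: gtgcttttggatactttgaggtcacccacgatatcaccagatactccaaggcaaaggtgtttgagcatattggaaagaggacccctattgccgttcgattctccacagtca

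Differences were larger toward the 5′ side of the gene. The mean difference was -0.026 over the first 5 of these exons and -0.0083 over the other 6. Across the 11 exons, which share libraries and neighbouring reads, Spearman's rho of the NZO PSI with exon order was 0.99, and that of the B6-ob/ob PSI was 0.75.

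**Figure D4:**
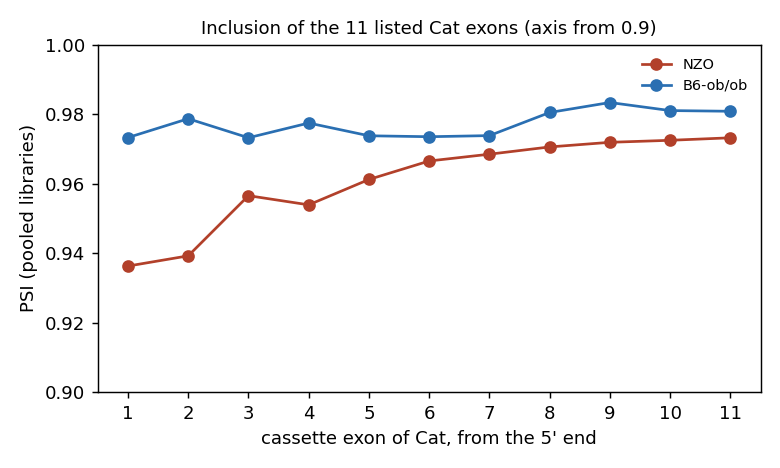
PSI of the 11 Cat cassette exons in order from the 5′ end (y axis from 0.9 to 1), pooled NZO and B6-ob/ob libraries. NZO rises from 0.936 at the first listed exon (exon 2 of the gene) to 0.973 at the last, and B6-ob/ob stays between 0.973 and 0.983.

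Aldh1a3 and Oat hardly varied. The 11 cassette exons of Aldh1a3 ran from 0.996 to 0.997 in NZO and from 0.997 to 0.998 in B6-ob/ob, and its largest difference was 0.0024, at an alternative first exon with a PSI of 0.0121 in NZO islets, compared with 0.00974 in B6-ob/ob. The 7 cassette exons of Oat ran from 0.991 to 0.994 in NZO and from 0.989 to 0.992 in B6-ob/ob. The largest Oat difference was -0.012, at a first exon with a PSI of 0.0324 and 0.0448. Pdgfra, the member with the lowest mean normalized count at 10.8, had a pair of 3′ ends only 14 nt apart. The upstream one had a PSI of 0.929 in NZO islets, compared with 0.903 in B6-ob/ob, and the downstream one 0.0702 and 0.0969, a difference of -0.027.

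Events of genes related to the members by function, in lists written from general knowledge, were counted against the same limit, with no test. In the 9 lists with events the share past it ran from 1.39% to 11.9%, and 7 of the 9 lists lay below the 8.73% of all events. The lists' median absolute differences ran from 0.00087 to 0.0238, against 0.00911 for all events. Of the 9 genes given with a PSI, 5 are described at tandem 3′ ends, where 29.4% of all sites passed. The others are at tandem starts, a first exon and a retained intron, types of which 23.3%, 7.72% and 11.5% passed. Of the 178 events of 19 further disallowed genes 11 passed, or 6.18% (5 higher and 6 lower in NZO). Fcgrt, the neonatal Fc receptor, used its upstream 3′ end at 0.885 in NZO and 0.618 in B6-ob/ob. Its downstream end lay 74 nt further. Yap1, a growth regulator of the Hippo pathway, had a start stretch of only 8 nt at 0.924 and 0.717. Mylk, myosin light chain kinase, had the highest mean normalized count of this list, 528. Of 33 events of 10 further progenitor genes 2 passed, or 6.06%, and Serpina7, which encodes thyroxine-binding globulin, was highest at 14716. Pou5f1, a pluripotency factor, had a mean count of 0.105. Of the 94 events of 16 beta cell identity genes 8 passed, or 8.51%. Among them Pax6, a transcription factor of endocrine cells, had a start stretch at 0.399 in NZO and 0.0400 in B6-ob/ob. These PSI values are shares within 1 of its sets of tandem starts. Ins2, which encodes insulin, had the highest mean count in this list, 6676910.

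Among 10 partners of Rest 13 of 170 events passed, or 7.65%. Hdac1, a histone deacetylase of its corepressor complexes, used the upstream 3′ end at 0.561 in NZO and 0.00388 in B6-ob/ob. The downstream end of Hdac1 lay 164 nt further. Rcor3, of the same complex family, had 2 sets of tandem ends that went opposite ways. The upstream end of the first set was used at 0.224 in NZO and 0.592 in B6-ob/ob, and an upstream end of the other at 0.362 and 0.123. The next end lay only 4 nt further in the first set and 15 nt in the other. Ehmt2, a histone methyltransferase, had the highest mean count of this list, 5169. Among 8 partners and antagonists of Myc 8 of 75 events passed, or 10.7%, and Mxd4, an antagonist, was highest at 7997. Among the ligands and the sister receptor of Pdgfra 7 of 59 passed, or 11.9%. Pdgfrb, that receptor and the highest of this list at a mean count of 885, used its upstream 3′ end at 0.985 in NZO and 0.600 in B6-ob/ob. Its downstream end lay only 5 nt further. Pdgfd, a ligand, used its downstream end, also only 5 nt after the upstream one, at 0.603 and 0.220. Of 53 events of retinoid enzymes and receptors 3 passed, or 5.66%. Rarg, a retinoic acid receptor, had a first exon at 0.414 in NZO and 0.136 in B6-ob/ob, and Rxra was highest at a mean count of 1701. Among peroxide and superoxide enzymes 4 of 58 passed, or 6.90%. Sod2, the mitochondrial superoxide dismutase, had an intron retained at 0.893 in NZO and 0.655 in B6-ob/ob, and Prdx1, a peroxiredoxin, was highest at 7182. Among ornithine and proline enzymes 1 of 72 passed, or 1.39%.

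Levels per kb of other cell types stood beside those of 2 members. For Sox9, at 7.28, the ductal markers ranged from 2.07 for Cftr to 11759 for Spp1, with Krt19 at 69.3. For Pdgfra, at 1.58, 6 stellate and fibroblast markers ranged from 26.7 for Lum to 281 for Col3a1. The part of these cells in the members' levels was not tested.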

How the data were processed

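Islet RNA of 10 mice, 5 per strain, was sequenced by the authors. Per the study's methods, the authors quantified transcripts with Salmon and DESeq2 and splicing with Whippet on the Ensembl annotation of mm10. Versions are not given in the sources used here. The deposited gene table was read for its mean normalized count over all libraries, a signal made by the authors with DESeq2. The deposited splicing table was read for the PSI of each strain, a fraction from 0 to 1 that the authors computed over pooled replicates. The reads behind each PSI and the depth per library are unknown here. The tables also hold the authors' own comparison (log2 fold changes, adjusted p-values, PSI differences, probabilities). These columns, and the sheets selected by them, were not used. The gene levels were therefore not compared between strains.

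Differences were computed as NZO minus B6-ob/ob, with a limit of 0.1 on the absolute value. With pooled values there is no error, no test and no p-value. Levels were divided by the longest transcript of GENCODE M21, which matched 99.1% of genes with a count above 0 by symbol. Of the cassette exons, 99.9% had the exact coordinates of an exon there, and sequences came from its transcripts. Python 3.11.15 with pandas 2.3.3, numpy 2.4.6 and scipy 1.17.1 was used, and the counting and coordinate steps were tested on simulated data. All members were named. Of their events, those past the limit were named and, for members with none, the largest one. Of the listed genes, up to 3 a list with an event over 0.2 and a mean count of at least 100 were named, and the one with the highest mean count, which for the ornithine and proline enzymes is not reported here. Events and genes beyond this rule (Pou5f1, the other Myc, Cck and Cat events, both Cck receptors) were chosen after their values were seen. The members and lists were chosen with earlier results of these data known. Alternatives were other limits, count minimums, event types and lengths.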

Additional observations from a re-analysis of the deposited data

How the results depend on the processing

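The values rest on pooled columns, so no replicate could be left out and no paired analysis was possible because no column carries a replicate. The share of all events past the PSI limit was 8.73%. It was 3.65% at a limit of 0.2 and 16.4% at 0.05. With genes of a mean normalized count of at least 100 it was 7.99%, and of at least 10 it was 8.38%. The members' count of 2 was 2 at a limit of 0.2 and 7 at 0.05. It was 0 of 33 when tandem starts, tandem ends and first exons were left out. Those 33 were 32 cassette exons and 1 alternative acceptor. Over all genes, 1.48% of cassette exons and 14.9% of alternative acceptors passed the limit of 0.1. At 0.05 the events were 3 of Myc, 2 of Cck and 2 of Neurog3. Each member event was listed once, so counting by coordinates changed nothing. Over levels, Aldh1a3 stayed first, Oat second and Pdgfra last per kb of the longest transcript, per kb of merged exons and without division by length. Without that division Gast fell to the 41.3 percentile and Cck to 51.8. Among genes with a mean count of at least 1, Myc and Cat were at the 47.5 percentile, Gast at 46.2 and Neurog3 at 43.9, all below the median, and Pdgfra was at 8.96. For tandem sites the share past the limit was 29.4% in all genes and 38.5% in genes with a mean count of 50 to 200, a range chosen after seeing the data. The reads behind each PSI are unknown, so the limit that depth sets cannot be given per event.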
